A study of Mus musculus with 9 samples.

Results

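The baseline transcriptome of vehicle-treated calvarial osteoblasts was read from 3 microarrays, those titled Osteoblast-Vehicle 1, 2 and 3, of 9 arrays in the series. Osteoblasts are the cells that lay down bone matrix, and calvaria is the skull cap. The cells came from C57BL/6J pups aged 7 to 10 days (the strain characteristic reads C57BL/6), were released with collagenase and trypsin, and were used at passage 2. Differentiation medium with β-glycerophosphate and ascorbic acid was given from day 3, serum was withdrawn on day 10 for 24 h, and vehicle in serum-free medium with 0.5% BSA was then given for 4 h. The 6 other arrays hold cells of the same protocol given 100 nM hPTH(1-34), a fragment of human parathyroid hormone, or 1 µM bovine (D-Trp12,Tyr34) PTH(7-34) amide, written bPTH(7-34) here, with 3 arrays each. The cells are a culture of all cells that the digestions released, sorted by no marker. The labels give neither the sex of the pups nor how many were pooled. The series text states that each replicate was prepared independently. It does not say if the 3 treatments of a number began from the same cells.

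Cells of the osteoblast lineage arise from mesenchymal progenitors, of the neural crest and of mesoderm in the skull, and form bone directly, without a cartilage model. They secrete a matrix of type I collagen and small proteoglycans, mineralise it with the help of alkaline phosphatase, and in part become osteocytes, the cells buried in bone. They also steer osteoclasts, the bone-resorbing cells, through secreted factors such as RANKL (Tnfsf11) and its decoy osteoprotegerin (Tnfrsf11b).

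A value is the log2 RMA signal of a transcript cluster, a group of probes for one transcript region. Of 41345 clusters, 23521 carry exactly 1 gene symbol, and taking the brightest of a gene's clusters on the vehicle arrays gave 22180 genes. The 3 numbers after a gene are its signals on vehicle arrays 1, 2 and 3 in that order, and an error is the SD of the 3. A signal also depends on how well a gene's probes bind and is not scaled per length, so an order of signals is an order of brightness, not of RNA amount, and no fold between genes is given. Olfactory receptor genes, which serve smell in the nose, gave the background. Their median was 1.05 (1105 genes), and the limit on each array was their 95th percentile, 1.7, 1.87 and 1.78. A gene above its limit on all 3 arrays is called above background. That held for 11858 of 22180 genes (53.5%), against 2.08% of the olfactory receptor genes themselves and 2.46% of 285 vomeronasal receptor genes. One of the latter, Vmn1r233, was bright, at 10.30, 10.38 and 10.44, rank 76 of all genes. What its cluster reads was not tested, so a high signal alone does not show expression of the named gene. The brightest olfactory receptor gene had a mean of 3.79, and 7638 genes (34.4%) had a mean above it. Near the limit the call is fine-grained: 2321 genes (10.5%) lay within 0.25 of it, of which 935 were inside. Vpreb2, Zfp995 and H2al2a passed by 0.01, and Stra6l, Ankrd53 and Syngr3 missed by less than that. A gene below the limit was not detectable here, which does not show that its RNA is absent.

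**Figure D1:**
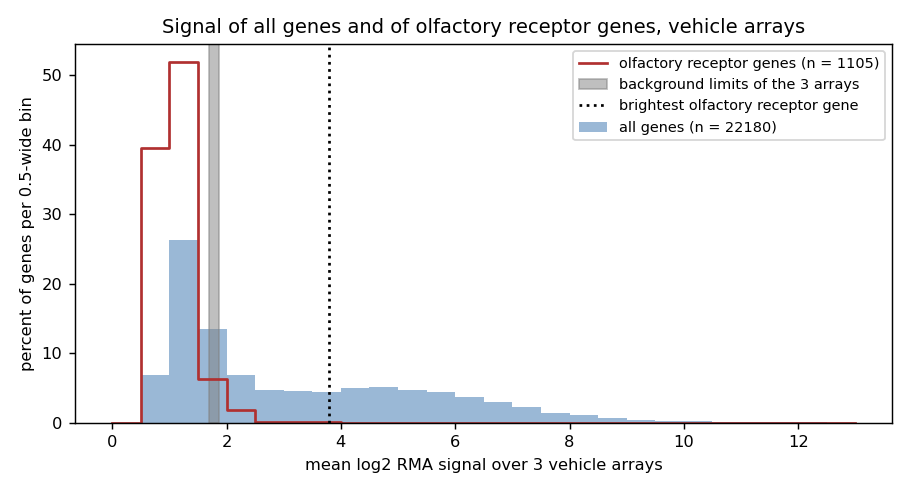
Share of genes, in percent, in each 0.5-wide bin of mean log2 RMA signal over the 3 vehicle arrays, for all 22180 genes (bars) and for 1105 olfactory receptor genes (line). Olfactory receptor genes pile up around their median of 1.05, left of the grey band of the 3 background limits, while 53.5% of all genes lay above the limit on every array. The dotted line is the brightest olfactory receptor gene, at 3.79.

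The label was checked against osteoblast markers first. Col1a1, a chain of type I collagen, gave 12.18, 12.39 and 12.31, and its partner chain Col1a2 gave 11.52, 11.84 and 11.70. Sparc, the matrix protein osteonectin, gave 10.88, 10.88 and 10.87. These 3 matrix genes were far above background, and the arrays lay within 0.32 of each other even for Col1a2, the most variable of them. Alpl, the alkaline phosphatase of mineralising cells, gave 5.26, 5.86 and 5.39. Pth1r, the receptor for parathyroid hormone, gave 4.82, 4.84 and 4.45. Both were clear of their limits on every array, with array 2 the highest. Of the whole list of osteoblast markers, 18 of 20 measured genes (90.0%) were above background, against 53.5% of all genes, with a median signal of 5.10 against 2.19. The other 2 are Bglap and Sp7. Bglap, osteocalcin, a late osteoblast product, gave 1.22, 1.10 and 1.42. Sp7, osterix, the transcription factor that commits precursors to the lineage, gave 1.46, 1.30 and 1.59. Both lay below the limit on all 3 arrays. Some lists of other cells had similar shares above background. These were 24 of 25 fibroblast and tendon markers, 18 of 21 chondrocyte markers and 13 of 15 adipocyte markers. Epithelial markers, with 3 of 19, and endothelial markers, with 6 of 18, had lower shares. The osteoblast count therefore does not set osteoblasts apart from fibroblast, tendon, cartilage or fat cells. Runx2, Spp1 and Bglap2 have no cluster with a single symbol and were not analysed here. The choice of cluster matters for some of these genes: Alpl lay 3.72 above the mean limit by its brightest cluster and 0.92 by its dimmest, and Col1a2 9.90 and 6.77.

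The 3 vehicle arrays correlated with each other at r = 0.977 to 0.981 across clusters, and the median SD of a gene above background was 0.15, with a 95th percentile of 0.44. The spread was uneven between genes: an SD over 0.5 was found for 389 of the 11858 genes (3.28%), and over 1 for 16. Xist, the RNA that coats an inactive X chromosome, had signals of 1.73, 5.43 and 5.98. On the hPTH(1-34) arrays it gave 1.81, 5.88 and 6.17, and on the bPTH(7-34) arrays 1.80, 5.43 and 5.82. Array number 1 of each group was near the background limit, and numbers 2 and 3 were well above it. Y-linked genes ran the other way. Uty, a gene of a histone demethylase family, gave 4.64, 0.94 and 1.63 on the vehicle arrays. Eif2s3y, a translation factor gene, gave 4.45, 1.44 and 0.82. Kdm5d, a histone demethylase gene, gave 3.44, 0.76 and 1.23. Vehicle array 1 alone was above its limit for all 3, and in each peptide group, too, number 1 alone exceeded the vehicle limits. The other Y-linked genes measured did not follow. Usp9y was below background on all vehicle arrays, and Sry, the testis-determining gene, gave 2.79, 3.19 and 3.06. Replicate numbers thus went with the signal of Xist, Uty, Eif2s3y and Kdm5d in all 3 groups. For these 4 genes vehicle array 1 differed from arrays 2 and 3. Over all clusters it correlated with them at 0.978 and 0.981, against 0.977 between arrays 2 and 3. Such correlations mostly follow how genes differ in brightness, so they do not show that array 1 was otherwise alike. Among genes above background, array 1 was the highest for 44.1% and the lowest for 21.1%.

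Differences between the numbers were then tested over the 9 arrays with limma's F-test, with group as a term. After Benjamini-Hochberg adjustment 50 of 23521 clusters passed (0.213%), and Xist and Uty shared the smallest adjusted p, 1.7e-05 by limma. The 50 stand for 50 of the 22180 genes (0.225%), and 44 of them were above background in vehicle. All arrays of number 1 lay above all others for 24 of the 50 and below all others for 23. The same orders held for 742 and 454 of all 22180 genes. Leaving out vehicle array 1, 2 or 3 in turn gave 6, 20 and 21, hPTH(1-34) array 1, 2 or 3 gave 11, 25 and 10, and bPTH(7-34) array 1, 2 or 3 gave 14, 31 and 10. On the 6 peptide arrays alone, which leave the vehicle arrays out, Xist and Uty passed, each with an adjusted p of 0.0331 in the limma F-test, and no other cluster did, while 1680 had an unadjusted p under 0.05. What else differs between the numbers (animals, culture, array handling) was not tested and cannot be told apart from them here.

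Some listed genes of cartilage, tendon and bone matrix passed the test and were lowest in number 1. Col2a1, the collagen of cartilage, gave 5.99, 7.09 and 7.15. Col11a1, its partner in the cartilage fibril, gave 6.15, 7.50 and 7.86. Comp, a cartilage and tendon glycoprotein, gave 7.01, 7.72 and 8.04. In each, vehicle array 1 was the lowest, and the adjusted p of the limma F-test over numbers was 0.00559, 0.00725 and 0.0411. Thbs4, a tendon thrombospondin, gave 4.95, 6.82 and 7.06. Tnmd, tenomodulin, gave 9.48, 10.01 and 10.34. Col12a1, a fibril-associated collagen, gave 9.22, 10.50 and 10.35. The same order held for these 3, for the cartilage gene Cnmd, for the microfibril gene Fbn2 and for Itga2, a collagen-binding integrin subunit. Among bone genes, Phex, an endopeptidase gene of phosphate balance, gave 2.14, 3.31 and 3.90. Ibsp, bone sialoprotein, gave 3.10, 4.34 and 4.08. Tnn, a tenascin of bone matrix, gave 4.60, 6.36 and 5.51. Array 1 was again the lowest each time. The imprinted gene Mest gave 8.38, 9.66 and 10.13, and the imprinted growth factor Igf2 7.90, 8.30 and 8.69, lowest on array 1 as well. Each of these cartilage, tendon, bone and imprinted genes passed the test over numbers.

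A smaller set of listed genes was higher in number 1. Ccl11, the chemokine eotaxin, gave 9.47, 7.63 and 7.62. Dkk2, a Wnt antagonist, gave 4.32, 3.31 and 2.74. Cd36, a fatty acid transporter, gave 5.21, 4.56 and 4.53. All 3 passed the F-test over numbers, with adjusted p of 0.0105, 0.00957 and 0.0402 by limma. Outside the lists, Saa4, an acute-phase protein of the serum amyloid A family, gave 5.62, 3.66 and 3.09. Hpx, the haem carrier haemopexin, gave 7.35, 5.35 and 5.00. Spib, a transcription factor gene of blood cells, gave 4.61, 2.72 and 2.72. These 3 passed too, with array 1 the highest. Kcnma1, a calcium-activated potassium channel, was far higher in number 3 than in the others: it had 1.81, 2.09 and 7.97 on the vehicle arrays, 3.09, 1.63 and 7.49 with hPTH(1-34), and 1.39, 1.64 and 6.09 with bPTH(7-34). Its vehicle SD of 3.48 was the largest of the genes above background on at least 1 array, with predicted and small RNA genes passed over. The 20 genes with the largest vehicle SD, chosen by that SD, were highest on array 1 for 13, on array 2 for 1 and on array 3 for 6. In both peptide groups, which did not enter the choice, the same number was highest for 17 of the 20. That share was not computed over all genes, so the count is not read as a trait of these 20.

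**Figure D2:**
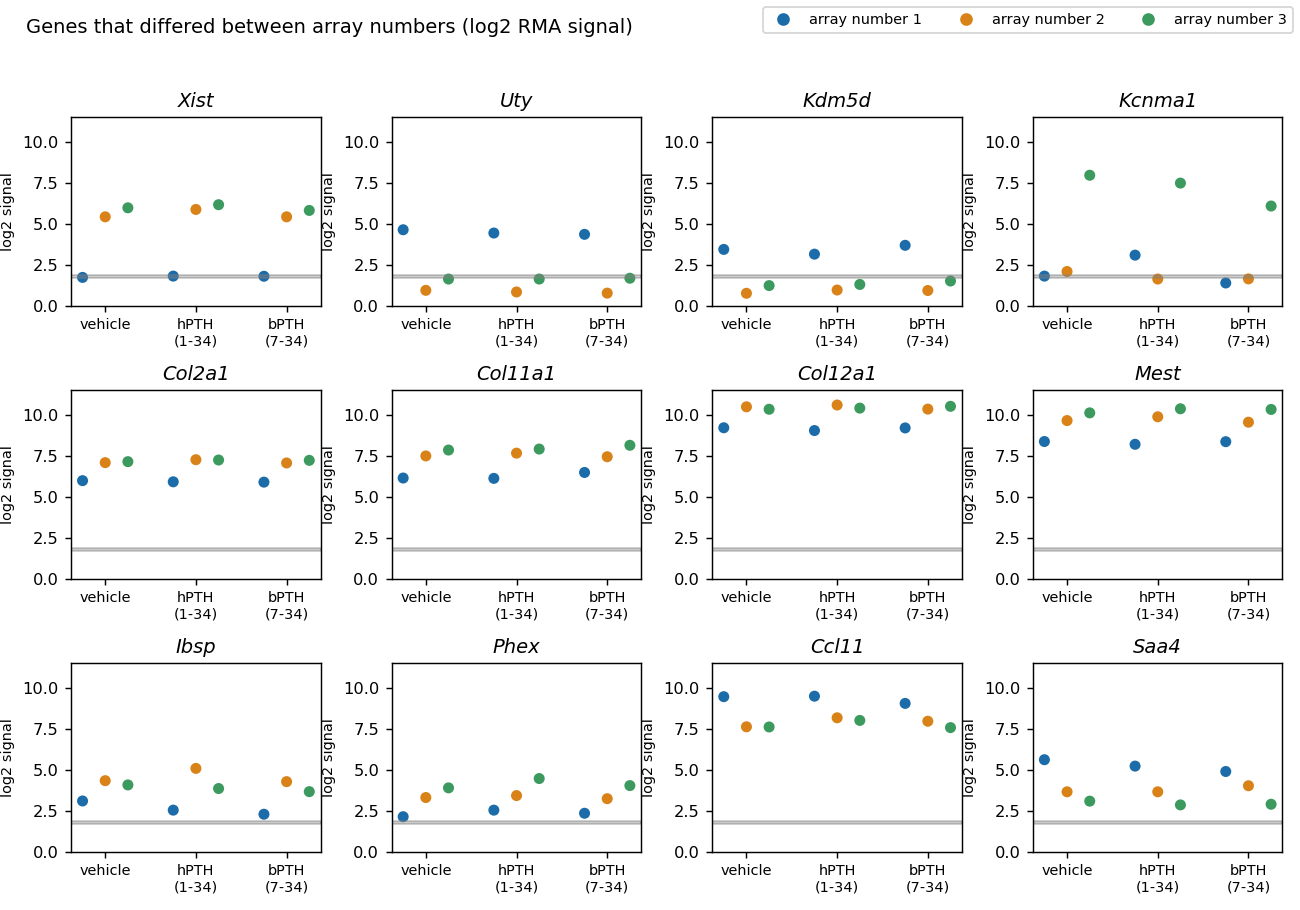
Log2 RMA signal of 12 genes on each of the 9 arrays, by group (x axis) and array number (colour), with the background limits as a grey band. Xist is at the limit in number 1 and above 5 in numbers 2 and 3 of every group, Uty and Kdm5d have the opposite order, Kcnma1 is high in number 3 alone, Col2a1 to Phex are lowest in number 1, and Ccl11 and Saa4 are highest in number 1.

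Counts of genes above background were repeated without each array. Without vehicle array 1 the count over all genes was 11993 in place of 11858, and no list's count moved by more than 1.5 times. Without array 2 it was 12360, and the epithelial list went from 3 to 6 of 19. Without array 3 it was 12103, with no list moved by that much.

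The brightest signals came from the mitochondrial genome, the bone matrix and a few inflammatory genes. ND4, a subunit gene of respiratory complex I, was first with 12.59, 12.66 and 12.72, and 9 of the 100 brightest genes are mitochondrial. Bgn, the small proteoglycan biglycan, gave 12.45, 12.41 and 12.40, next to Col1a1. Fn1, fibronectin, gave 11.97, 12.14 and 12.12. Dcn, the proteoglycan decorin, gave 11.89, 11.67 and 11.57. Of the 100, 19 are on the collagen, proteoglycan and glycoprotein lists, 4 are matrix proteases or their inhibitors, 8 are ribosomal proteins and 3 are translation factors. Saa3, a serum amyloid A protein made in tissues during inflammation, was the fifth with 12.57, 12.34 and 12.33. Ccl5, a chemokine for T cells and monocytes, gave 12.28, 11.90 and 11.78. Cxcl5, a neutrophil chemokine, gave 12.04, 11.88 and 11.94. In these 3 array 1 was the highest, and 7 chemokines and cytokines in all were among the 100. Also above 11 were Fth1 (ferritin heavy chain), B2m (the light chain of class I histocompatibility molecules), Calr (a chaperone of the endoplasmic reticulum), and Ifitm3 and Ly6e, both interferon-inducible. The 100 had means of at least 10.09, a median SD of 0.12 and a largest SD of 0.48.

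Every measured gene of both matrix lists was above background. This held for 38 of 38 collagen and collagen-processing genes, with a median of 7.91, and for 34 of 34 proteoglycans and glycoproteins, with a median of 8.65. Col3a1, a fibrillar collagen of soft tissue, gave 11.26, 11.23 and 11.19. Col6a1, a microfibril collagen, gave 10.59, 10.88 and 10.99. Lox, the enzyme that crosslinks collagen, gave 10.46, 10.56 and 10.64. The spread of these 3 was small beside their height over the limit. Postn, periostin, gave 11.29, 11.52 and 11.66. Lum, the proteoglycan lumican, gave 10.97, 11.25 and 11.18. Mgp, an inhibitor of calcification, gave 9.99, 10.17 and 10.12. Array 1 was the lowest in all 3, as it was for 17 of the 38 collagen-list genes and 19 of the 34 others, against 21.1% of all genes above background. It was the highest for 13 and 8 of them, against 44.1%. Col5a2 and Col5a1, chains of the collagen that seeds type I fibrils, had means of 8.97 ± 0.21 and 8.55 ± 0.10 (SD, n = 3). The dimmest gene of the glycoprotein list was Acan, aggrecan, the large proteoglycan of cartilage, at 1.86, 1.91 and 1.86.

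Proteases that turn this matrix over were bright as well, with 27 of 29 protease and inhibitor genes above background. Mmp2, a gelatinase, gave 11.41, 11.27 and 11.32. Mmp13, the collagenase of bone and hypertrophic cartilage, gave 11.07, 11.40 and 11.10. The membrane-bound Mmp14 gave 10.05, 9.90 and 9.92. No array was high or low throughout. Their inhibitor Timp1 gave 11.17, 10.65 and 10.69, highest on array 1, and Timp2 10.71, 10.61 and 10.65. Timp4 and Mmp10 were the 2 not above background. Mineral transport and matrix vesicle genes were above background for 9 of 13. The annexins Anxa5, Anxa6 and Anxa2, calcium-binding proteins of vesicles, had means of 9.50, 8.90 and 8.52. The phosphate transporters Slc20a1 and Slc20a2 had 5.95 ± 0.10 and 6.06 ± 0.40, and Ank, a pyrophosphate transporter, 5.67 ± 0.29 (SD, n = 3). The spread of Slc20a2 reached 0.79 between arrays 1 and 3.

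Osteoblast genes beyond the 5 label markers filled the middle of the scale. Cthrc1, a secreted protein of matrix-forming cells, gave 6.74, 7.22 and 6.96. Atf4, a stress-responsive transcription factor of osteoblasts, gave 6.80, 6.74 and 6.61. Bmp3, a BMP family member made by bone cells, gave 5.18, 6.50 and 5.74. Atf4 was steady, and the other 2 were highest on array 2. Dlx5, a homeobox factor of the lineage, was dimmer at 3.30, 2.87 and 2.91. Array 1 was the lowest for 11 of the 18 osteoblast markers above background and the highest for 4, against 21.1% and 44.1% of all genes above background. The list mean was 5.27, 5.62 and 5.45 on the vehicle arrays, and number 1 was the lowest in both peptide groups too, at 5.19 and 5.24.

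Osteocyte markers were above background for 11 of 16. Pdpn, podoplanin, an early marker of osteocyte dendrites, gave 10.06, 9.50 and 9.39. Cd44, a hyaluronan receptor, gave 5.40, 5.22 and 5.06. Fam20c, a kinase of secreted phosphoproteins, gave 5.02 on all 3 arrays. Pdpn and Cd44 were highest on array 1. The matrix and secreted genes Dmp1, Mepe and Sost were not above background. Dmp1, a matrix phosphoprotein, gave 1.22, 1.28 and 1.19. Mepe, another, gave 1.70, 1.49 and 1.42. Sost, which encodes the Wnt inhibitor sclerostin, gave 1.32, 1.94 and 1.36. Sost passed the limit on array 2 alone, and the other 2 genes on none. Fgf23, the phosphate-lowering hormone, was above background at 3.95, 3.22 and 2.61, with an SD of 0.67.

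**Figure D3:**
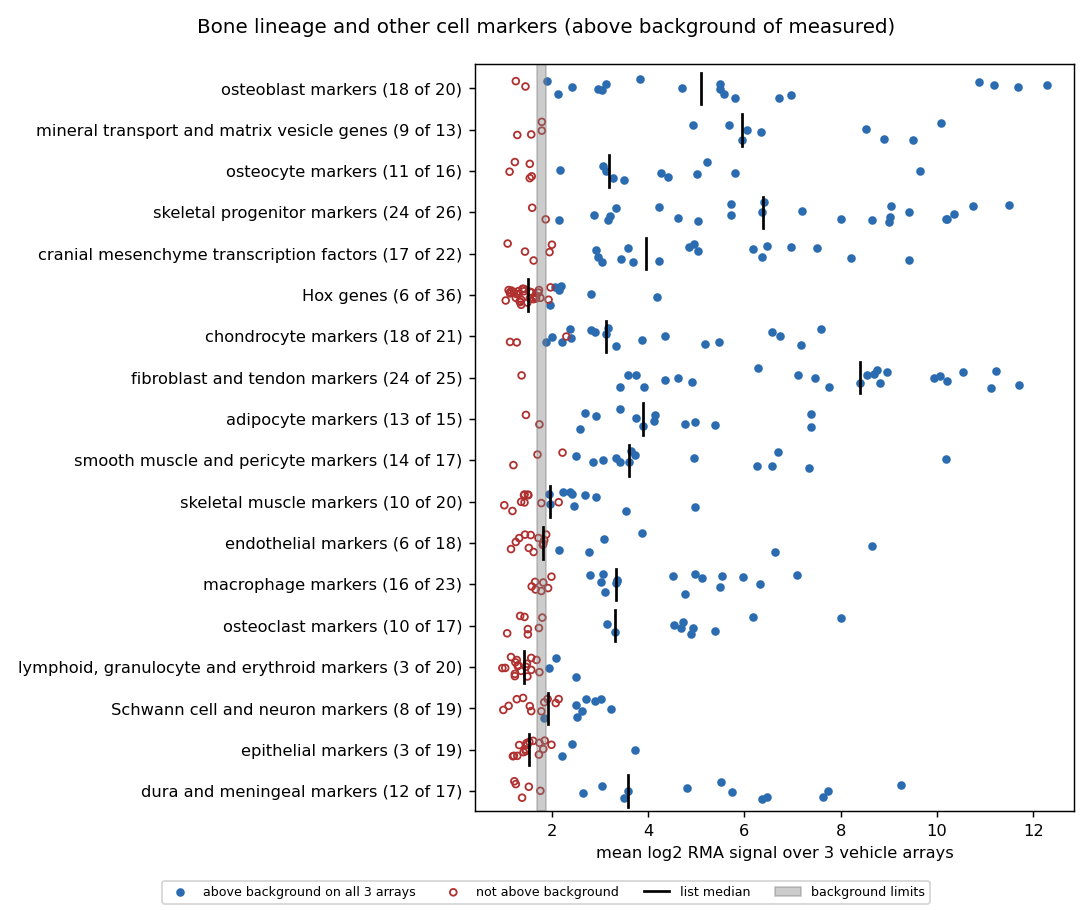
Mean log2 RMA signal over the 3 vehicle arrays of each measured member of 18 marker lists (points, spread vertically for legibility), with filled points above background on all 3 arrays, the list median as a bar, and the background limits as a grey band. Counts beside each name are members above background of members measured: fibroblast and tendon, progenitor and osteoblast lists lie mostly right of the band, and the Hox, lymphoid, epithelial and endothelial lists mostly left or inside it.

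Transcription factors of cranial mesenchyme were mostly above background (17 of 22), and Hox genes mostly not. Prrx1, a factor of limb and craniofacial mesenchyme, gave 9.36, 9.50 and 9.38. Snai2, a factor of neural crest and mesenchyme, gave 7.98, 8.17 and 8.47. Meox2, a homeobox factor of mesoderm, gave 7.53, 7.34 and 7.67. These 3 had the highest means of the list. Zic1, a factor of meninges and dorsal neural tissue, gave 6.36, 6.60 and 6.41. Foxc1, a factor of meninges and skull, gave 6.32, 6.57 and 6.23. Twist1, which keeps skull sutures open, gave 6.46, 6.23 and 5.84. Tfap2a, Tfap2b and Pax3, early neural crest factors, were not above background, nor were Dlx6 and Twist2. Hox genes, which mark position along the trunk and limbs, were above background for 6 of 36 (16.7%), with a list median of 1.51. The brightest, Hoxd8, gave 4.22, 4.18 and 4.18, and Hoxa4 gave 3.02, 2.72 and 2.72. The other 4, Hoxb5, Hoxb3, Hoxd10 and Hoxb2, had means of 2.18 or less. The Hox count is tied to the limit: it was 2 with a 99th-percentile limit, 12 with a 90th, and 11 when a gene's mean was set against the mean limit, written here as with means.

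Skeletal progenitor markers were above background for 24 of 26, with a median of 6.39. Cxcl12, a chemokine of marrow stroma, gave 10.88, 10.70 and 10.65. Vcam1, an adhesion molecule, gave 10.51, 10.29 and 10.29. Pdgfra, a PDGF receptor of mesenchymal cells, gave 10.24, 10.25 and 10.12. The arrays differed little in all 3. Acta2, smooth muscle actin, a marker of suture and periosteal progenitors, gave 10.05, 10.36 and 10.17. Ctsk, which marks periosteal stem cells as well as osteoclasts, had 7.83, 8.10 and 8.06, and Thy1, a mesenchymal surface protein, 7.19 ± 0.04 (SD, n = 3). Lepr, the leptin receptor of marrow stroma, gave 2.02, 2.05 and 1.54. Gli1, a target of hedgehog signalling, gave 1.69, 1.70 and 1.37. Lepr missed the limit on array 3 alone, and Gli1 on all 3.

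Fibroblast and tendon markers were above background for 24 of 25, with a median of 8.41, and share members with the matrix lists. Besides Tnmd, the tendon gene Fmod, fibromodulin, gave 9.84, 10.18 and 10.16. Scx, the tendon transcription factor scleraxis, gave 4.54, 4.59 and 4.74. Both were lowest on array 1, by little. Pi16, a marker of a fibroblast subset, gave 4.97, 2.80 and 3.46, with array 1 the highest. Cartilage markers were above background for 18 of 21, with a lower median of 3.12. Sox9, the main transcription factor of cartilage, gave 6.63, 6.45 and 6.65. Array 1 was not the lowest for it, unlike Col2a1. Ucma, a cartilage matrix protein, gave 4.39, 5.49 and 5.64, but did not pass the test over numbers. The chondrocyte list mean was 3.45, 3.81 and 3.86 on the vehicle arrays, with number 1 lowest in both peptide groups as well, at 3.41 and 3.33.

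Adipocyte markers were above background for 13 of 15, with a median of 3.90. Lpl, lipoprotein lipase, gave 7.42, 7.32 and 7.42. Fabp4, a fatty acid carrier, gave 7.68, 7.14 and 7.31. Adipoq, the hormone adiponectin, gave 4.98, 3.97 and 3.49. Array 1 was highest for 10 of the 13 and lowest for 0, against 44.1% and 21.1% of all genes above background. Pparg, the main transcription factor of fat cells, gave 5.05, 4.78 and 5.09. Smooth muscle markers were above background for 14 of 17. The contractile genes Myl9 and Tagln had means of 7.34 ± 0.15 and 6.70 ± 0.11, and Myh11, the smooth muscle myosin, 2.85 ± 0.28 (SD, n = 3). Skeletal muscle markers passed for 10 of 20 (50.0%, near the 53.5% of all genes), and for 4 with a 99th-percentile limit. The brightest was Actn3, an actinin of fast muscle, at 4.79, 5.26 and 4.85. The muscle transcription factor Myog gave 2.36, 2.62 and 2.39. The listed myosin heavy chains, Myh1, Myh2, Myh3, Myh4 and Myh8, were not above background.

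Macrophage markers were above background for 16 of 23. Lyz2, a lysozyme, gave 7.58, 6.49 and 7.20. Fcer1g, an Fc receptor chain, gave 7.01, 5.60 and 6.36. Adgre1, the antigen F4/80, gave 6.29, 4.82 and 5.39. Vehicle array 1 was the highest and array 2 the lowest for these 3, and array 1 was the highest for 16 of the 16, against 44.1% of all genes above background. Csf1r, the receptor for the growth factor CSF1, gave 4.69, 4.26 and 4.62. Mpeg1, a pore-forming protein of macrophages, gave 6.11, 3.92 and 4.26. No macrophage marker passed the F-test over numbers, but only 0.225% of all genes did, so this says little about the list. The median SD of the 16 was 0.52, against 0.15 over all genes above background. Ptprc, the leukocyte antigen CD45, gave 2.29, 1.65 and 2.03, below the limit on array 2. Mrc1 and Cd163, receptors of resident macrophages, and Cx3cr1, a chemokine receptor, were not above background either. The list mean was 4.07, 3.33 and 3.58 on the vehicle arrays, 4.21, 3.44 and 2.83 with hPTH(1-34), and 3.62, 3.84 and 2.94 with bPTH(7-34), so number 1 was the highest in 2 of the 3 groups. In RNA from a whole culture, fewer cells of a type and less RNA per cell cannot be told apart.

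Osteoclast markers passed for 10 of 17 (58.8%, near the 53.5% of all genes). Those that did include genes of wider use: Ctsk, Mmp9, a gelatinase, at 6.39, 6.02 and 6.11, and Src, a kinase, at 5.31, 5.24 and 5.58. Acp5, the tartrate-resistant phosphatase of osteoclasts, gave 4.72, 4.74 and 4.73. Calcr, the calcitonin receptor, gave 3.90, 2.78 and 2.74, highest on array 1. Dcstamp and Ocstamp, which serve osteoclast fusion, were not above background, nor were Oscar and Tnfrsf11a, the receptor RANK. Lymphoid, granulocyte and erythroid markers passed for 3 of 20 (0 with a 99th-percentile limit), with 2.50 as the highest mean, and the T-cell antigens Cd3e, Cd4 and Cd8a did not pass.

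Endothelial markers passed for 6 of 18, and for 11 with a 90th-percentile limit or with means. Pecam1, an adhesion molecule that defines the type, gave 1.63, 2.15 and 1.86. Cdh5, its cadherin, gave 1.80, 1.83 and 1.83. Kdr, a VEGF receptor, gave 1.63, 1.46 and 1.59. None of the 3 was above its limit on every array. Eng, a TGF-β coreceptor also made by mesenchyme, gave 9.05, 8.53 and 8.41. Ecscr, an endothelial surface protein, gave 6.86, 6.52 and 6.50. These 2 were the brightest of the list and highest on array 1. Epithelial markers passed for 3 of 19 (1 with a 99th-percentile limit, 7 with a 90th and 8 with means), with the defining adhesion molecules Cdh1 and Epcam not above background. Schwann cell and neuron markers passed for 8 of 19, with 3.22 as the highest mean, and for 4 with a 99th-percentile limit and 13 with means. Of 17 dura and meningeal markers 12 passed, led by Ccn3, a matricellular protein, at 8.85, 9.33 and 9.59, while Slc6a13, a transporter of meningeal fibroblasts, did not.

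Receptors were read next, beginning with that for the hormone under study. Of the PTH, calcitonin and adrenergic family list 9 of 18 were above background, a share (50.0%) near that of all genes, and 5 with a 99th-percentile limit. Calcrl, which binds adrenomedullin and CGRP peptides, gave 7.32, 6.38 and 6.48. Its partner Ramp2 gave 5.34, 5.29 and 5.18. Ramp3, another partner, gave 2.07, 1.96 and 1.96. Calcrl was highest on array 1, Ramp3 lay close to the limit, and Pth1r had the third highest mean of the list. Pth2r was not above background. Among receptors for nucleotides and prostaglandins 12 of 18 passed. P2rx4, an ATP-gated channel, gave 8.79, 8.73 and 8.66. Ptgfr, the prostaglandin F receptor, gave 5.70, 6.03 and 6.26. Ptgir, the prostacyclin receptor, gave 5.50, 5.34 and 5.08. Ptger2, a prostaglandin E receptor, did not pass. Of 23 other G-protein-coupled receptors 13 passed. The sphingosine phosphate receptors S1pr3 and S1pr1 had means of 9.49 ± 0.21 and 6.61 ± 0.24, and the thrombin receptor F2r 6.81 ± 0.16 (SD, n = 3).

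Receptors for the growth factor families of bone were mostly above background. For TGF-β and BMP 13 of 15 passed. Bmpr2, the type II BMP receptor, gave 10.00, 9.95 and 10.12. Tgfbr2, the type II TGF-β receptor, gave 8.39, 8.35 and 8.37. Bmpr1a, a type I BMP receptor, gave 6.45, 6.47 and 6.41. The 3 arrays were close for each. For Wnt 18 of 23 passed. Fzd1, a frizzled receptor, gave 8.39, 8.32 and 8.10. The coreceptor Lrp6 gave 7.68, 7.78 and 7.78. Lrp5, the coreceptor whose variants alter bone mass, gave 5.84, 5.85 and 5.84. No Wnt receptor passed the test over numbers, against 0.225% of all genes. Of 30 receptor tyrosine kinases 25 passed. After Pdgfra the brightest were Axl, the receptor for Gas6, at 9.33, 8.94 and 9.07, and Pdgfrb, at 9.19, 9.05 and 8.79. Of the FGF receptors, Fgfr1 gave 7.29, 7.09 and 7.15, and Fgfr2 gave 6.71, 6.43 and 6.36. Fgfr3, at 1.39, 1.28 and 1.64, and Fgfr4 were not above background.

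Cytokine and TNF family receptors passed for 27 of 32, and array 1 was highest for 20 of the 27, against 44.1% of all genes above background. Il6st, the shared gp130 subunit, gave 10.46, 10.34 and 10.33. Its partner for oncostatin M, Osmr, gave 9.51, 9.16 and 9.18. Il1r1, the interleukin 1 receptor, gave 9.16, 9.11 and 9.30. Il1r1 was highest on array 3, the other 2 on array 1. Nuclear receptors passed for 29 of 39. Nr3c1, the glucocorticoid receptor, gave 7.40, 7.17 and 7.17. Vdr, the vitamin D receptor, gave 7.06, 6.83 and 6.35. Esr1, an oestrogen receptor, gave 2.62, 2.51 and 2.89. Nr3c1 and Vdr had the highest means of their list, and Esr1 was below the brightest olfactory receptor gene. Integrin subunits passed for 19 of 25. Itgb1, the common β1 subunit, gave 9.07, 9.19 and 9.23. Itgav, which binds RGD proteins of bone matrix, gave 8.94, 9.11 and 9.04. Array 1 was the lowest for both. Itga4 and Itgax, integrins of leukocytes, were not above background.

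**Figure D4:**
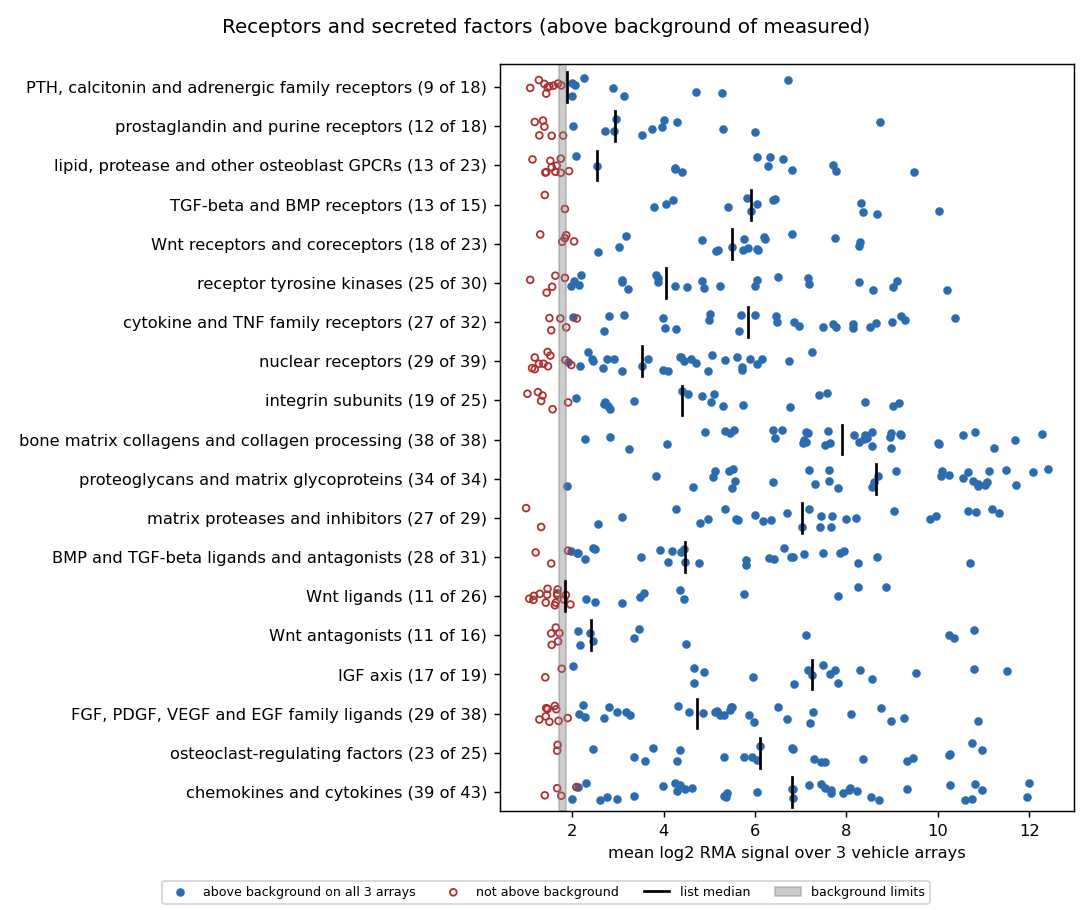
Mean log2 RMA signal over the 3 vehicle arrays for the measured members of 9 receptor lists (top) and 10 lists of matrix and secreted factors (below), with the same marks as the plot of cell markers. Collagen and proteoglycan genes all lie above the background limits, with medians of 7.91 and 8.65, whereas most Wnt ligands lie left of or within the grey band.

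BMP and TGF-β ligands and antagonists passed for 28 of 31. Fstl1, a follistatin-like protein, gave 10.79, 10.62 and 10.70. Chrdl1, a BMP antagonist, gave 7.76, 8.26 and 8.76. Bmp4, a ligand that induces bone, gave 6.43, 6.69 and 6.79. Array 1 was the lowest for Chrdl1 and Bmp4. Bmp2, another such ligand, was dimmer at 2.36, 2.53 and 2.46. Wnt ligands passed for 11 of 26 (42.3%), under the 53.5% of all genes, and the 3 brightest members of that list are not Wnts. Rspo3, an R-spondin that amplifies Wnt signals, gave 8.76, 8.89 and 8.95. Rspo2, another, gave 7.37, 8.02 and 8.05. Wls, the carrier needed to secrete Wnts, gave 8.28, 8.21 and 8.28. Of the Wnts, Wnt5a gave 4.68, 4.04 and 4.32, while Wnt1, Wnt3a, Wnt10b and Wnt16 were not above background. Wnt antagonists passed for 11 of 16. The secreted frizzled-related proteins Sfrp2 and Sfrp1 had means of 10.36 ± 0.05 and 10.25 ± 0.14 (SD, n = 3).

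The IGF axis passed for 17 of 19. Igfbp5, a binding protein stored in bone, gave 11.44, 11.53 and 11.56. Igf1 gave 7.23, 7.67 and 8.05. Its receptor Igf1r gave 7.20, 7.12 and 7.13. Igf1 was lowest on array 1, as was Igf2, while the receptor was steady. Among FGF, PDGF, VEGF and EGF family ligands and related factors 29 of 38 passed. Ptn, pleiotrophin, gave 10.68, 10.90 and 11.03. Fgf7, a ligand of Fgfr2, gave 8.80, 8.70 and 8.75. Vegfa, the vessel growth factor, gave 5.79, 5.43 and 5.22. Array 1 was lowest for Ptn and highest for Vegfa.

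Factors that act on osteoclasts passed for 23 of 25. Csf1, needed by osteoclast precursors, gave 9.59, 9.20 and 9.19. Tnfsf11, RANKL, gave 4.92, 4.36 and 3.58. Tnfrsf11b, its decoy, gave 3.68, 3.57 and 3.54. Tnfsf11 spread more than Tnfrsf11b, with SDs of 0.67 and 0.07. Ccl2, a monocyte chemokine, gave 11.15, 10.87 and 10.89. Il6, a cytokine of bone and inflammation, gave 7.70, 7.47 and 7.41. Ptgs2, the inducible cyclooxygenase, gave 8.92, 8.08 and 8.09. Array 1 was highest for each of these 3. Chemokines and cytokines passed for 39 of 43. Cxcl9, a chemokine induced by interferon, gave 11.36, 10.64 and 10.44. Lcn2, an iron-scavenging acute-phase protein, gave 10.97, 10.43 and 10.39. Vehicle array 1 was the highest for 33 of the 39 and the lowest for 2, against 44.1% and 21.1% of all genes above background. The list mean was 6.51, 6.12 and 6.02 on the vehicle arrays, 6.59, 6.11 and 5.71 with hPTH(1-34), and 6.18, 6.35 and 5.66 with bPTH(7-34). The macrophage list means had the same order of numbers in both peptide groups, and array 1 highest in vehicle. The part of macrophages in the chemokine signals was not tested.

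Interferon response genes were all above background, 19 of 19, with a median of 7.97. Interferons induce these genes through a factor complex that binds the interferon-stimulated response element, and the genes are known for low levels in resting cells. Bst2, the antiviral membrane protein tetherin, gave 10.90, 10.46 and 10.37. Ifit1, a sensor of viral RNA ends, gave 9.74, 9.51 and 9.51. Isg15, a ubiquitin-like modifier, gave 9.63, 9.35 and 9.21. Array 1 was the highest in each. Irf7, a factor that amplifies interferon production, gave 9.66, 8.99 and 8.84. Over the list, vehicle array 1 was the highest for 17 of 19 genes and the lowest for 0, against 44.1% and 21.1% of all genes above background. List means were 7.55, 7.15 and 7.15 on the vehicle arrays, 7.45, 6.81 and 6.67 with hPTH(1-34), and 7.35, 7.24 and 6.80 with bPTH(7-34), so number 1 was the highest in every group. No member of the list passed the F-test over numbers, against 0.225% of all genes. Outside it, the related genes Oas2, at 6.04, 5.14 and 4.45, and Oas1g, at 5.37, 4.07 and 3.53, did, and they were named after their values were seen.

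The promoters of 3 of these genes are shown because many of the list's members share a motif. A link between the motif and the order of the arrays was not tested. They are the 130 bases before the start in RefSeq's GRCm38.p6 annotation, 5′ to 3′ on the gene's strand, and capitals mark each match to the response element core (GAAA, any 2 bases, GAAA) or its reverse complement (TTTC, any 2 bases, TTTC), with overlapping matches run together. The stretches are chr4:156200819-156200948 (minus strand) for Isg15, chr19:34640759-34640888 (plus strand) for Ifit1 and chr8:71537473-71537602 (minus strand) for Bst2.
Isg15: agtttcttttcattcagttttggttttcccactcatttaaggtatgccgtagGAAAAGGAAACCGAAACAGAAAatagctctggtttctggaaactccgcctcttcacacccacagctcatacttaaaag
Ifit1: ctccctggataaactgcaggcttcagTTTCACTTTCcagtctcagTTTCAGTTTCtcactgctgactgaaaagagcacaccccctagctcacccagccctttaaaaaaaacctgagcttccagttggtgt
Bst2: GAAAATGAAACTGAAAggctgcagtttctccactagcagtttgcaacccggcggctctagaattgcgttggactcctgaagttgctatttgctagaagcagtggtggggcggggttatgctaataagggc
Isg15 holds 3 matches, the first starting 78 bases before the start, Ifit1 has 2, from 104 bases before it, and Bst2 has 2, from 130 bases before it. These 3 held the most matches of the stretches read. Ifit3 and Rsad2 held 1 each, and Cxcl10, Ddx58, Ifih1 and Stat2 held 0. Counted in windows of 300 bases, from 250 before to 50 after the start, the core was found on either strand for 9 of 14 interferon response genes with a sequence (64.3%). The share was 3.99% for 27025 genes with a promoter, 3.69% for genes above background and 7.25% for olfactory receptor genes. It was 9.38% for 32 chemokines and cytokines and 11.1% for 63 of the 100 brightest genes. Of the matrix lists, it was 13.6% for 22 proteoglycans and glycoproteins and 0 of 28 for collagen genes. For 13 osteoblast markers it was 7.69%. A match describes the letters, not binding.

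**Figure D5:**
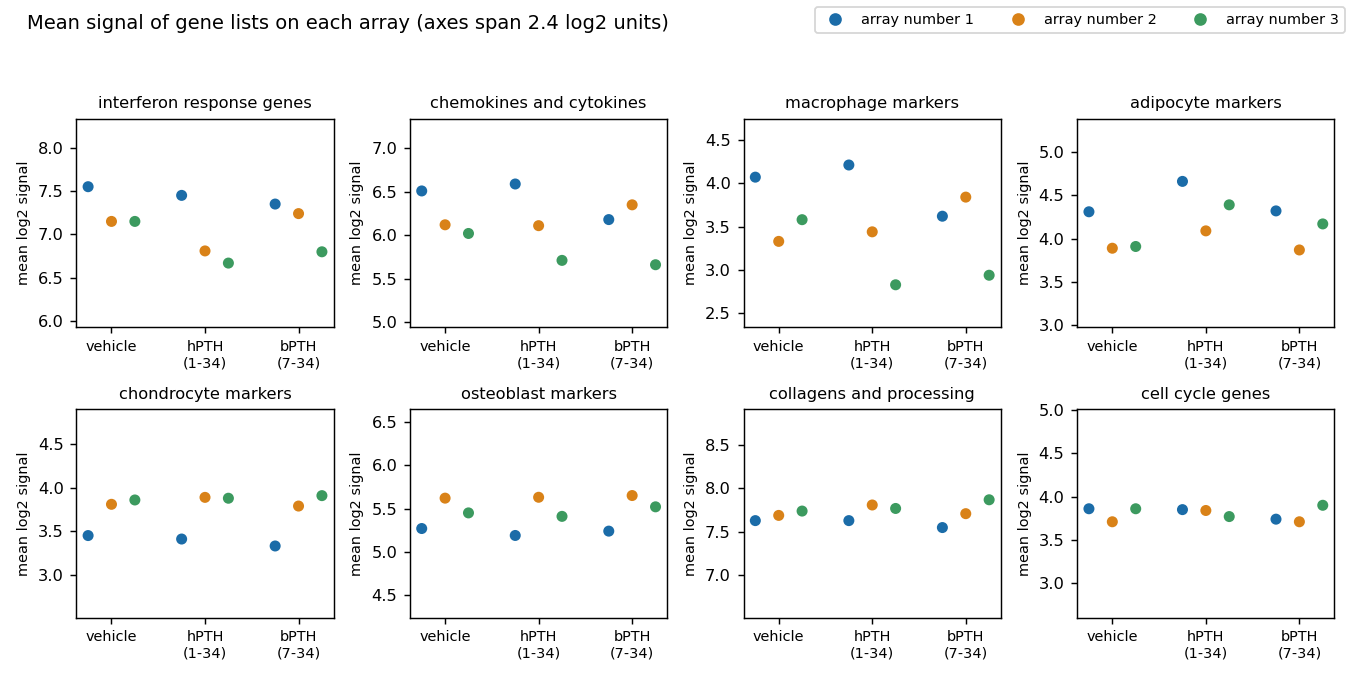
Mean log2 RMA signal of 8 gene lists on each of the 9 arrays, by group (x axis) and array number (colour). Every axis spans the same 2.4 log2 units, placed around the list's own level. The interferon list is highest in number 1 of every group (7.55, 7.45 and 7.35), the chondrocyte list lowest there (3.45, 3.41 and 3.33), and the cell cycle list shows no fixed order of numbers.

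The state of the cells was read from growth genes. Cell cycle genes passed for 27 of 28, with a median of 3.71. Pcna, a replication clamp, gave 6.94, 6.98 and 7.33. Cdk1, the mitotic kinase, gave 5.30, 5.47 and 5.11. Mki67, a proliferation marker, gave 4.21, 3.85 and 4.48. No array was the highest for all 3. CDK inhibitors and senescence genes passed for 16 of 16, with a median of 5.93. Cdkn1a, the inhibitor p21, gave 9.01, 8.43 and 8.31. Cdkn2a, an inhibitor gene known to rise with passage in culture, gave 6.71, 5.83 and 5.94. Array 1 was highest for 12 of these 16, against 44.1% of all genes above background. The list mean was 6.6, 6.35 and 6.41 on the vehicle arrays. It was 6.51, 6.51 and 6.46 with the human peptide, and 6.51, 6.36 and 6.53 with the bovine peptide. Number 1 was thus not alone the highest in either peptide group. The F-test over numbers was passed by no member of the list, against 0.225% of all genes. Reference genes passed for 12 of 12. Eef1a1, a translation factor, Ywhaz, an adaptor protein, and Sdha, a mitochondrial enzyme subunit, had SDs of 0.05, 0.09 and 0.03. Gapdh and Actb, at 0.20 and 0.22, were above the median SD of genes above background. Of the imprinted growth genes 12 of 13 passed, and array 1 was lowest for 7 of them and highest for 1, against 21.1% and 44.1% of all genes above background.

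The vehicle levels are also the base for both peptides, and both comparisons share these 3 arrays. With hPTH(1-34), 106 of 23521 clusters passed limma's test with Benjamini-Hochberg adjustment (0.451%; 0.473% of genes), 73 higher (0.310%) and 33 lower (0.140%). With bPTH(7-34) the count was 0 by limma. There were 780 clusters at an unadjusted p under 0.05, a share below the 0.05 expected with no difference. The hPTH(1-34) count moved with single arrays of both groups. Without vehicle array 1, 2 or 3 the hPTH(1-34) count was 72, 0 and 0, and without hPTH(1-34) array 1, 2 or 3 it was 259, 3 and 2. It was 0 when the 6 arrays of the comparison were fitted alone. Of the 885 listed genes measured 18 were called for hPTH(1-34), and since the lists were drawn up with such results known, nothing is read from that share.

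Baseline levels of the called genes ranged from the limit to the top of the scale. Nr4a3, an orphan nuclear receptor, gave 2.18, 2.27 and 2.05 with vehicle and 4.49, 4.83 and 5.56 with hPTH(1-34). It rose by 2.79 ± 0.23 on the log2 scale (SE, adjusted p = 0.00556 by limma). Ramp3 went from 2.07, 1.96 and 1.96 to 3.51, 5.18 and 5.00, a rise of 2.57 ± 0.36 (SE, limma adjusted p = 0.0275). Vehicle and peptide arrays did not overlap for either gene. Vdr started well above background, at 7.06, 6.83 and 6.35, gave 8.63, 9.12 and 9.17 with the peptide and rose by 2.23 ± 0.22 (SE, limma adjusted p = 0.00861). Tnfsf11 gave 4.92, 4.36 and 3.58 with vehicle and 6.20, 7.42 and 6.96 with the peptide, a rise of 2.57 ± 0.43 (SE, limma adjusted p = 0.0468). Thbs1, a matrix glycoprotein, went from 10.97, 11.25 and 11.02 to 10.38, 10.28 and 10.32 and fell by 0.75 (SE 0.11, limma adjusted p = 0.0338). Rspo2 went from 7.37, 8.02 and 8.05 to 6.27, 6.20 and 6.37 and fell by 1.53 (SE 0.23, limma adjusted p = 0.0356). Irs1, an insulin receptor substrate, Bmp4, Lifr, a gp130 partner, Scx and Snai2 fell too. Nr4a2, a relative of Nr4a3, Bdkrb1, a bradykinin receptor, Inhba, an activin subunit, Ntrk2, a neurotrophin receptor, Cxcl14, a chemokine, S1pr1 and Il4ra, an interleukin 4 receptor chain, rose. With vehicle array 2 or 3 left out none of the 18 passed, and without vehicle array 1 there were 9 that did. With the array number as a replicate block 13 of the 18 passed, and Bmp4, Cxcl14, Inhba, Irs1 and Scx did not, with limma adjusted p of 0.0853, 0.0512, 0.0550, 0.0720 and 0.0518.

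No osteoblast, osteocyte, progenitor or chondrocyte marker was called with hPTH(1-34), and with bPTH(7-34) no gene at all was. Over all genes the hPTH(1-34) share was 0.473%, so a lack of calls in lists this short says little about them. The median changes of these lists with hPTH(1-34) were 0.00, -0.01, -0.02 and 0.02, against 0.00 over all genes. The adipocyte list had the widest median change, 0.33, with 0 of 15 called, and the interferon list followed at -0.21, with 0 of 19 called. With bPTH(7-34) the macrophage, chemokine and interferon lists had medians of -0.19, -0.12 and -0.11, and the Schwann cell and neuron list 0.12. Among the 3 vehicle arrays themselves the means of the macrophage, chemokine and interferon lists differed by up to 0.74, 0.49 and 0.40.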

How the data were processed

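Mouse Gene 2.0 ST arrays (Affymetrix) were run on 100 ng of RNA per sample, per the labels' protocols. The authors deposited log2 values for each transcript cluster, computed by RMA in Affymetrix Expression Console, per the submitters' processing notes; versions are not given in the sources used here. RMA normalises all arrays together, so levels are relative to these 9 arrays, whose medians ran from 1.67 to 1.76. Arrays have no read depth, and their number limits the precision. Symbols came from GEO's platform annotation: 23521 clusters had 1, 1814 several and 16010 none, and only the first were used. Of 22180 genes, 1082 had several clusters, and 21994 matched RefSeq by gene identifier.

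Tests used limma 3.58.1 in R 4.3.3 on the 23521 clusters and 9 arrays (lmFit, eBayes, two-sided, Benjamini-Hochberg threshold 0.05): a group fit with 6 residual and 3.20 prior degrees of freedom, and an F-test of array number with group as a term (4 and 3.67). Both were also run on simulated data with noise drawn independently for each array, without the deviations that arrays of one number share here. Nothing about these data is read from that run. Errors of levels are SDs of 3 arrays. Nothing says that replicates came from separate animals beyond the series' statement of independent preparation. The 43 lists (965 genes, 885 measured) and the choice of arrays were made with earlier results of these data known, so no list is independent support.

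Named genes were the 30 brightest, the 6 brightest above background and the defining members of each list, the 20 largest SDs, listed genes called in a comparison and some fixed bone genes. Predicted and small RNA genes were passed over among the brightest and the largest SDs. Other list members are named after their values were seen. Runx2, Spp1 and other genes without a single-symbol cluster were not analysed here. Alternatives were other background limits, cluster choices, normalisations, filters, fits, the array number as a block, and leaving out each array. Promoters came from RefSeq (GRCm38.p6). Plots used matplotlib 3.10.9 in Python 3.11.15.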

Additional observations from a re-analysis of the deposited data

Results flagged for a closer look

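Clusters that name no single gene also carried signal on the vehicle arrays. Of 1814 clusters with several symbols 879 (48.5%) were above the background limit on all 3 arrays, and of 16010 with no symbol 3967 (24.8%) were. The share was 53.5% for genes and 2.08% for olfactory receptor genes. These clusters entered no list, so genes such as Runx2 and Spp1 are missing from the counts.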

How the results depend on the processing

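The count of genes above background, 11858, ranged from 10066 with a 99th-percentile limit to 13412 when the mean was set against the limit of means, and was 11993 to 12360 with 1 vehicle array left out. List counts moved by over 1.5 times for 7 of 43 lists at the 99th percentile, 3 at the 90th and 5 with means. SDs over 0.5 numbered 341 after quantile normalisation and 467 with arrays at one median, against 389. The 106 calls with hPTH(1-34) became 16 when all 41345 clusters were tested, 0 on 6 arrays alone, and 0 to 259 with 1 array left out. The calls between array numbers went from 50 to 11 with all clusters, 2 on the peptide arrays alone and 6 to 31 with 1 array left out. Why all clusters gave fewer was not tested. Arrays of one number deviated from their group means with correlations of 0.08 to 0.47 (9 pairs), against -0.42 to 0.15 for other numbers (18 pairs). Of 18 comparisons, 15 correlated best with their own number. The rule for using numbers as pairs asked for 0.1 in every pair, and the lowest, 0.08, missed it. The main group fit therefore left the numbers out, although most arrays resembled their own number. With array number as a replicate block the counts were 112 for hPTH(1-34) and 0 for bPTH(7-34). For bPTH(7-34) limma called 0 under each alternative run, with 369 to 1588 clusters at an unadjusted p under 0.05. Each time that was a share below 0.05 of the clusters tested. No direction reversed under the alternatives run. Genes within 0.25 of the limit, 10.5% of all, are those whose call the background limit leaves least certain.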

Other observations

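Among gene families outside the lists, 63 of 86 ribosomal protein genes (73.3%) and 80 of 472 microRNA genes (16.9%) were above background on the 3 vehicle arrays. The array protocol is not made for mature microRNAs, and these clusters read their precursor regions.

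Among the 20 genes with the largest vehicle SD, 3 had another number highest in at least 1 peptide group. Rab3c, a vesicle-trafficking gene, gave 4.06, 1.88 and 4.29 with vehicle, 3.89 on each hPTH(1-34) array, and 2.75, 4.09 and 3.35 with bPTH(7-34), so the low value on vehicle array 2 did not recur. Nanp, a sialic acid phosphatase gene, gave 2.94, 4.58 and 2.25 with vehicle and was highest on number 3 with hPTH(1-34), at 4.36, but on number 2 again with bPTH(7-34), at 3.18. Olfr373, an olfactory receptor gene, gave 0.88, 1.18 and 2.85 with vehicle and no more than 1.09 on any peptide array.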
